A study of Mus musculus with 5 samples.

Results

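The small leucine-rich proteoglycans (SLRPs) are secreted matrix proteins, and the 10 genes described here are Aspn, Omd, Ogn, Dcn, Bgn, Lum, Fmod, Prelp, Podn and Ecm2. They were taken by gene symbol as 10 of the 55401 genes in the deposited table, without use of their values. RNA-seq came from cultured bone mesenchymal stem cells (BMSCs) of wild-type (WT) mouse bone marrow, plastic-adherent marrow cells that are able to give rise to osteoblasts, adipocytes and chondrocytes. There were 5 libraries. One was made at each applied negative pressure of -80, -120, -160 and -200 mmHg, held for 48 h, and one at 0 mmHg, the control. Cells of all 5 conditions were grown for 72 h in flasks, per the labels' protocols. The strain, age and sex of the mice and the number of animals behind each culture are not given in the sources used here.

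SLRPs share a core of leucine-rich repeats, short repeated stretches that fold into a curved surface, and several of them bind collagen fibrils with it and set fibril width and spacing. Many carry glycosaminoglycan chains, long sulfated sugars, of the chondroitin and dermatan type (decorin, biglycan) or the keratan type (lumican, fibromodulin, osteomodulin). They also bind growth factors such as TGF-beta, and in marrow stroma and bone they take part in matrix assembly and mineral deposition. Several of their genes stand side by side in the genome.

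The family split under pressure. Aspn, Omd and Dcn were lower in every pressure library than in the control, Podn was higher in every one, Prelp was about 2-fold higher, and Bgn and Ogn, which are among the most abundant members, stayed close to the control. With 1 library per condition no difference has a replicate check, and no p-value is given. Every comparison with the control uses the same 1 library, so the 4 comparisons are not independent. That library also held 2493 reads of 4 genes on the Y chromosome that had 0 reads in each pressure library, so a difference in the source of the cultures and an effect of pressure cannot be told apart. In bulk RNA, fewer cells of a type and less RNA per cell cannot be told apart either.

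Levels are FPKM, fragments scaled to exon length and to the size of the library, as the authors deposited them. With the exon lengths of the mouse annotation they gave back whole read numbers, and library totals ran between 16600622 and 18056998 reads under pressure, against 18398911 in the control. Ratios below are ratios of reads per library total with exact Clopper-Pearson intervals at 95%, which cover counting error only. Differences were taken on the log2(FPKM + 1) scale. Changes of low genes are understated there. A gene counted as higher or lower when it differed by at least 2-fold, and it counted as measured when it averaged 1 FPKM or more. The 12113 measured genes had a median difference of 0.14 to 0.16, so the typical gene lay slightly above the control.

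The stromal identity of the cultures was checked against marker genes. Of 12 stromal markers 10 were measured, among them Pdgfra, Pdgfrb, Prrx1 and Cxcl12. At all 4 pressures 1 was lower (Ly6a, 622 to 828 FPKM under pressure against 1740.5 FPKM in the control). This was so for 4.46% of all measured genes. The summed level of the stromal list was 997 to 1186 FPKM under pressure and 2152 FPKM in the control, and without Ly6a, which did not keep its call at all 4 pressures under quantile normalization, 356 to 375 FPKM under pressure and 412 FPKM in the control. Thy1 went the other way, with 75, 91, 51 and 80 reads at the 4 pressures in order and 1 in the control, and passed the rule at -80, -120 and -200 mmHg. Pdgfra (63.7 to 71.5 FPKM under pressure, 44.3 FPKM in the control), Twist1 (55.9 to 58.3 FPKM, 42.1 FPKM), Prrx1 (24.4 to 27.4 FPKM, 21.6 FPKM) and Eng (1.52 to 2.43 FPKM, 1.34 FPKM) were also above the control, under the rule. Vcam1 (8.35 to 9.58 FPKM, 17.8 FPKM) was below the control and passed the rule at -120 mmHg only. Cxcl12 (129 to 139.8 FPKM, 201 FPKM), Pdgfrb (47.3 to 54.3 FPKM, 64.9 FPKM) and Cd44 (14.5 to 18.3 FPKM, 18.5 FPKM) were below it, under the rule. The macrophage list had a summed level of 67.7 to 75.5 FPKM under pressure and 27.9 FPKM in the control. Of its 8 markers 3 were measured and all 3 were higher at all 4 pressures (Lyz2, Cd68 and Cd14). Of all measured genes 6.49% were. Cd68 and Cd14 did not keep this call at all 4 pressures under trimmed-mean scaling, described with the settings below, or with a pseudocount of 5. Nor did Cd68 under quantile normalization. The pan-leukocyte gene Ptprc had at most 2 reads in a pressure library and 0 in the control, and Itgam had 0 in all 5. Adgre1 had 1 read, at -160 mmHg. Csf1r (36 to 42 reads under pressure, 10 in the control) and Aif1 (20 to 27 reads, 11) were above the control but not measured. Of 6 endothelial markers 1 was measured, Plvap, which was higher at all 4 pressures, as were 6.49% of all measured genes. The list summed to 3.39 to 4.95 FPKM under pressure against 1.09 FPKM in the control, and Emcn had 0 reads. Plvap did not keep its call under trimmed-mean scaling, quantile normalization, a pseudocount of 5 or a limit of 5 FPKM. Of 5 epithelial markers 0 were measured. The part of these markers in the results below was not tested.

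All 10 members were read in every library, and 8 had a mean of at least 1 FPKM. Lum and Ecm2 did not. Of the 8, Aspn and Omd reached 1 FPKM in the control only, and Podn and Fmod in pressure libraries only, so those 4 could pass the limit only through the condition in which they were high, and the counts over measured members describe them and support nothing. At -80, -120, -160 and -200 mmHg 3, 3, 3 and 3 members were lower than in the control, where 6.89%, 6.45%, 6.03% and 6.38% of all measured genes were. In the same order 2, 2, 1 and 2 members were higher, against 10.7%, 8.85%, 9.59% and 9.10% of all measured genes. The median log2 difference of the 8 was 0.02, -0.03, -0.01 and 0.12, against 0.16, 0.14, 0.15 and 0.14 over all measured genes.

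Calls on both sides depended on the settings. With a pseudocount of 5, or among genes averaging 5 FPKM or more, 2 lower members were left, Aspn and Dcn. Neither setting could call Omd. Its control level was 4.95 FPKM, too low to fall 2-fold with that pseudocount even without reads, and its mean was 1.68 FPKM. Of all genes 3.94%, 3.49%, 3.34% and 3.43% were lower at the 4 pressures in order with that pseudocount, and 7.18%, 6.26%, 6.05% and 6.04% with that limit. Under quantile normalization Dcn was not called at -80 and -200 mmHg, which left Aspn and Omd, against 7.21% and 6.85% of genes. A binomial test on the reads, which compares libraries and not conditions, called 4 lower members at -80, -120 and -160 mmHg, with Ogn added, against 31.0%, 29.8% and 29.9% of genes.

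Among the higher members, trimmed-mean scaling, in which the central log ratios are centred on the control, left 1. That member, Podn, was higher at -80, -120 and -200 mmHg, where 7.43%, 6.36% and 6.47% of measured genes were. Under quantile normalization it was again Podn alone at these pressures, against 7.97%, 6.92% and 6.87%. A pseudocount of 5 left 0 members higher at the 4 pressures, against 2.69%, 2.32%, 2.38% and 2.28%. Among genes averaging 5 FPKM or more, Prelp was higher at -80, -120 and -200 mmHg and 0 members at -160 mmHg, against 9.54%, 7.93%, 7.94% and 8.61% of those genes. Podn, with a mean of 3.64 FPKM, was not one of them and could not be called there. At -160 mmHg a pseudocount of 0.1 called 2 members (15.9% of genes) and a 1.5-fold threshold 2 (24.2%). The binomial test called 4 higher members at each pressure, against 47.4%, 46.7%, 47.9% and 47.0% of genes.

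**Figure D1:**
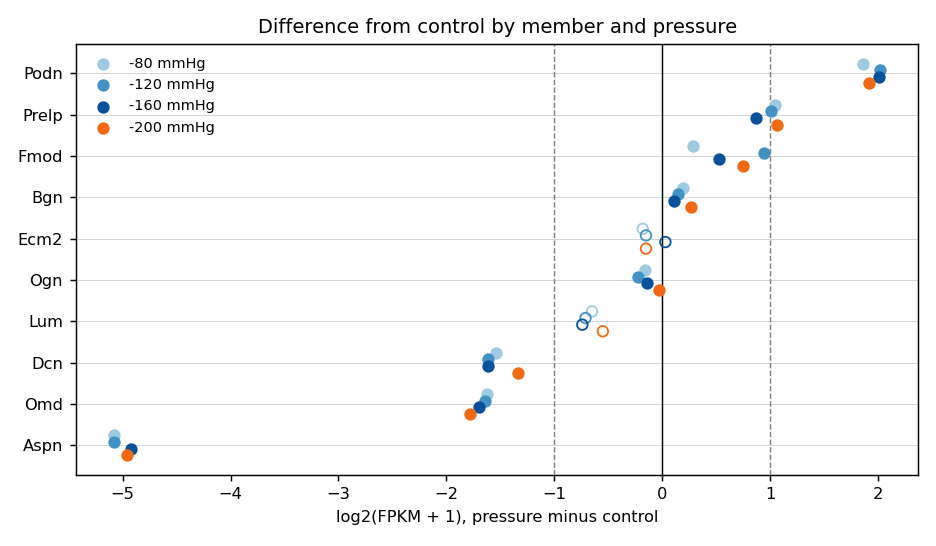
Difference in log2(FPKM + 1), pressure minus control, for each member (rows) at each pressure (colours), with 1 library per point. Dashed lines mark a 2-fold difference, and open circles mark Lum and Ecm2, which had a mean under 1 FPKM. Aspn lies between -5.08 and -4.92, Omd and Dcn between -1.78 and -1.34, and Podn between 1.86 and 2.02.

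The promoters of 5 members are printed first, because 3 of them are neighbours on chromosome 13 that behaved differently and the other 2, Prelp and Podn, were the members called higher under pressure. RefSeq promoter entries (build GRCm38.p6) were found for 8 of the 10 members, and Dcn and Lum are named only. Each sequence holds the 250 bases before the start given by its RefSeq entry, 5′ to 3′ on the gene's strand. That start can differ from the gene spans given below, which come from another annotation. The Podn window lies inside its gene span of 108014791 to 108096445. The Prelp window overlaps the end of its span at 133921414, and the Ogn window stops short of its first base at 49608046. Capitals mark matches, on either strand, to the 7 motifs searched. For the TATA box the letters searched were TATAAA. For the AP-1 site they were TGANTCA and for the TEAD site, which binds partners of YAP, GGAATG. For the SMAD site of TGF-beta signalling they were CAGAC and for the RUNX site of bone-forming cells TGTGGT. For the remaining promoter elements they were CCAAT for the box of that name and GGGCGG for the GC box. The windows are chr13:49544193-49544442 (+ strand) for Aspn, chr13:49582212-49582461 (+) for Omd, chr13:49607765-49608014 (+) for Ogn, chr1:133921402-133921651 (- strand) for Prelp and chr4:108031955-108032204 (-) for Podn, whose second entry is described but not printed.
Aspn: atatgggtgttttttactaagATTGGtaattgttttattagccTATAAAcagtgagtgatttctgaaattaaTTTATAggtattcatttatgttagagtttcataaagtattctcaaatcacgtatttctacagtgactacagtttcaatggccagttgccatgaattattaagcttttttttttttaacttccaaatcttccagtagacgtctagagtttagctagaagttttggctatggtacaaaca
Omd: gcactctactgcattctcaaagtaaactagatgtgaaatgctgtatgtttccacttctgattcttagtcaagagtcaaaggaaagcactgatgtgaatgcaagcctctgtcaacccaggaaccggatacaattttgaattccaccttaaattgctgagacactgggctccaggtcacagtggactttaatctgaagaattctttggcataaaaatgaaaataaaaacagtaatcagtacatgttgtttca
Ogn: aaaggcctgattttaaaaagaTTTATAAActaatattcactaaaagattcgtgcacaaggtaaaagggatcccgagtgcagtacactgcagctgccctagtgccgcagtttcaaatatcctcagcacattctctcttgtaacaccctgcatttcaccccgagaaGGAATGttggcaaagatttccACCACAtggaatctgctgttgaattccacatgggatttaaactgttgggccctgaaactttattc
Prelp: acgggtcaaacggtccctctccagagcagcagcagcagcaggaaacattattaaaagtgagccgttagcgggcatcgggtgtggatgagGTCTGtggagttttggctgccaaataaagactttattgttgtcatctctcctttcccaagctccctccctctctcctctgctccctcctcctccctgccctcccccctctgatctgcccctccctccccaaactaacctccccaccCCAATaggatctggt
Podn: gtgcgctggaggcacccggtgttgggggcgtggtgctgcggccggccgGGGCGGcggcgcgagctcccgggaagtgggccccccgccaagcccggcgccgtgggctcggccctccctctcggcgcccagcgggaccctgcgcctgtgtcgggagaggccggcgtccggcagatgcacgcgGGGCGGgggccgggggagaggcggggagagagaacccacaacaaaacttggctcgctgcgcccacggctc

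The 3 neighbours were poor in G and C. Their windows held 30% (Aspn), 38.4% (Omd) and 42.0% (Ogn) G and C, against a median of 52.4% over all 32851 promoter entries, while Prelp held 55.6% and Podn 78.0%. Of the other entries Ecm2, which lies in the same cluster and had a mean under 1 FPKM, held 40.0%, Fmod 51.2% and Bgn 64.4%. Their mean log2 differences in that order were -0.11, 0.63 and 0.18. Whether the share goes with the differences over the members was not tested. Podn had 32 CpG pairs in the window printed, against 2 in Aspn, 1 in Omd and a median of 6 over all entries. The second Podn entry held 64.0% G and C, 7 CpG pairs and 0 of the motifs. TATAAA or its reverse complement was present in the Aspn and Ogn windows, overlapping itself on the opposite strand in Ogn, and in 12.4% of all windows. Its nearest match began 178 bases before the start in Aspn and 227 in Ogn. The Ogn window also held GGAATG, found in 12.6% of all windows, and TGTGGT, found in 14.0%. CCAAT, found in 33.8% of all windows, was present in Aspn and Prelp, CAGAC (42.2%) in Prelp, and GGGCGG (32.7%) in Podn. None of the 7 motifs was found in the Omd window, and TGANTCA, in 6.75% of all windows, was in none of the 5. A match is a description of the letters and is not evidence of binding.

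Decorin, biglycan and asporin form class I of the family. Aspn encodes asporin, named for an aspartate-rich stretch near its start, which binds collagen and TGF-beta. Its gene lies on chromosome 13 from 49544443 to 49567565 (GRCm38) with 8 exon blocks. At 0, -80, -120, -160 and -200 mmHg it stood at 33.8, 0.0255, 0.0256, 0.150 and 0.118 FPKM. These were 1464, 1, 1, 6 and 5 reads. The control was far above the 4 pressure libraries, and among these -160 and -200 mmHg held a few reads more than -80 and -120 mmHg. At -80 mmHg the reads were 0.0755% of the control level (interval 0.00191% to 0.421%), and at -160 mmHg 0.443% (0.162% to 0.967%), so the intervals of the lowest and the highest pressure library overlap. By its mean log2 difference of -5.01 Aspn ranked 8 from the bottom of the 12113 measured genes. Aspn is among them only through its control level, so this rank describes it and supports nothing.

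Dcn encodes decorin, which coats collagen fibrils and binds TGF-beta. Its gene spans 97479609 to 97518143 on chromosome 10. At 0, -80, -120, -160 and -200 mmHg it stood at 422, 144, 137, 137 and 166 FPKM, from 45294, 13983, 13288, 13637 and 17483 reads. It was lower in all 4 pressure libraries, and least so at -200 mmHg. Per library total its reads were 34.1% (33.5% to 34.8%), 32.5% (31.9% to 33.2%), 32.6% (31.9% to 33.2%) and 39.3% (38.6% to 40.0%) of the control in order of pressure. The log2 difference was -1.61 to -1.34. Under quantile normalization it shrank to between -1.13 and -0.88, and the 2-fold rule was then missed at -80 and -200 mmHg.

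Bgn encodes biglycan, a close relative of decorin that mice need to reach normal bone mass. It lies on the X chromosome from 73483602 to 73495933. It was the most abundant member per exon length in all 5 libraries, with 509, 582, 565, 548 and 612 FPKM at 0, -80, -120, -160 and -200 mmHg. Its reads were 1.14-fold (1.13 to 1.16), 1.11-fold (1.10 to 1.12), 1.08-fold (1.06 to 1.09) and 1.20-fold (1.19 to 1.22) the control level. The 4 pressure libraries all stood above the control by less than 2-fold. This direction turned at 1 pressure, -160 mmHg, under trimmed-mean scaling (log2 difference -0.05), and quantile normalization raised the differences to between 0.67 and 0.77.

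Decorin and biglycan therefore moved apart within the same libraries. The ratio of Dcn to Bgn FPKM was 0.247, 0.243, 0.25 and 0.271 at the 4 pressures in order, against 0.828 in the control. Among all genes Bgn ranked 53 to 58 by FPKM under pressure and 102 in the control, and Dcn ranked 255 to 312 under pressure and 138 in the control. The rank of Ogn was 195 to 221 under pressure and 245 in the control.

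**Figure D2:**
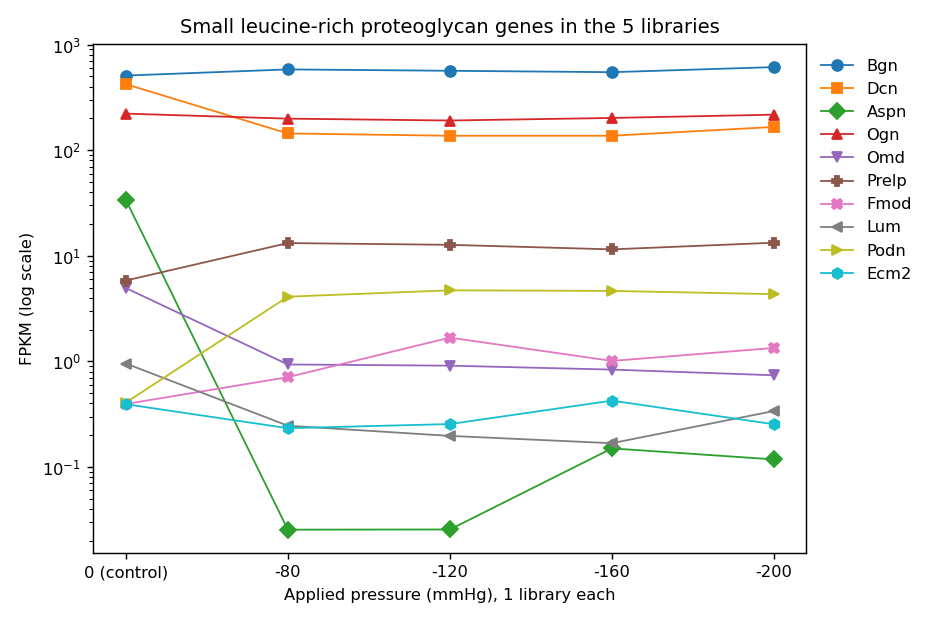
FPKM of the 10 members (log scale) at each applied pressure, with the control at 0 mmHg on the left and 1 library per pressure. Lines join the points of a gene for reading only. Aspn is at 0.0255 to 0.150 FPKM under pressure against 33.8 FPKM in the control, Dcn is below Ogn in all 4 pressure libraries, and Podn stands between 4.10 and 4.71 FPKM against 0.407 FPKM.

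Class II holds the keratan sulfate proteoglycans. Omd encodes osteomodulin (osteoadherin), a bone matrix protein made by osteoblasts, and lies between Aspn and Ogn from 49582462 to 49592822 on chromosome 13. At 0, -80, -120, -160 and -200 mmHg it stood at 4.95, 0.935, 0.911, 0.836 and 0.739 FPKM, from 205, 35, 34, 32 and 30 reads. All 4 pressure libraries were below the control and close to each other. The reads were 18.9% (12.8% to 27.1%) of the control level at -80 mmHg and 14.9% (9.81% to 21.9%) at -200 mmHg. The level was lower at each stronger pressure, but these intervals overlap widely. With a pseudocount of 5 the log2 difference was -0.79 to -0.75, short of the rule. A gene at 4.95 FPKM in the control cannot reach the rule downward with that pseudocount.

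Lum encodes lumican, needed for the ordered collagen of the cornea, and had a mean of 0.381 FPKM. It had 43, 10, 8, 7 and 15 reads at 0, -80, -120, -160 and -200 mmHg. The 4 pressure libraries were again all below the control. The reads were 17.6% (6.68% to 39.5%) of the control level at -160 mmHg and 35.5% (18.3% to 65.3%) at -200 mmHg, the lowest and the highest of the 4.

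Prelp and Fmod went the other way. Prelp encodes a proline- and arginine-rich SLRP that binds heparan sulfate and collagen, and it stood at 5.83, 13.2, 12.7, 11.5 and 13.3 FPKM at 0, -80, -120, -160 and -200 mmHg, from 388, 791, 765, 706 and 866 reads. The pressure libraries were 2.25-fold (1.99 to 2.55), 2.19-fold (1.93 to 2.48), 1.97-fold (1.74 to 2.23) and 2.27-fold (2.02 to 2.57) above the control. Prelp stood at the edge of the rule, with log2 differences of 1.05, 1.01 and 1.06 just past it and 0.87 at -160 mmHg under it. Under trimmed-mean scaling it lay at 0.72 to 0.92 and passed at no pressure. Of its 3615 exon bases 350 overlap the antisense gene Gm15851, which was listed at 0 to 0.363 FPKM.

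Fmod encodes fibromodulin, a collagen-binding protein of tendon and cartilage. It had 24, 39, 92, 57 and 80 reads at 0, -80, -120, -160 and -200 mmHg, or 0.395, 0.709, 1.68, 1.01 and 1.34 FPKM. The control was lowest, and on the log2(FPKM + 1) scale the pressure libraries differed among themselves more than for any other member. The reads were 1.80-fold (1.05 to 3.12) the control level at -80 mmHg and 4.25-fold (2.69 to 6.96) at -120 mmHg. The log2 difference of 0.94 at -120 mmHg was just short of the rule. With a pseudocount of 0.1 the differences were 0.71, 1.84, 1.17 and 1.54 in order of pressure, past the rule at the last 3.

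Ogn encodes osteoglycin (mimecan), a class III member of bone and other connective tissues, and lies from 49608046 to 49624501 on chromosome 13. It stood at 222, 199, 191, 202 and 217 FPKM at 0, -80, -120, -160 and -200 mmHg, from 10462, 8482, 8119, 8805 and 10043 reads. Its reads were 86.0% (83.5% to 88.5%) of the control level at -120 mmHg and 97.8% (95.2% to 101%) at -200 mmHg, where the interval includes no difference. It thus lay within a log2 difference of -0.22 to -0.03 of the control, and the direction turned under quantile normalization (0.14 to 0.36).

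The remaining members stand further from these classes. Podn encodes podocan, an SLRP first described in kidney podocytes, and spans 108014791 to 108096445 on chromosome 4. At 0, -80, -120, -160 and -200 mmHg it had 32, 291, 334, 338 and 334 reads, or 0.407, 4.10, 4.71, 4.65 and 4.33 FPKM. All 4 pressure libraries were far above the control and near each other. The folds over the control were 10.1 (6.97 to 15.0), 11.6 (8.04 to 17.2), 11.4 (7.94 to 17.0) and 10.6 (7.39 to 15.8), and its mean log2 difference of 1.95 ranked 150 from the top of the 12113 measured genes. Podn is among them only through its pressure libraries, so this rank describes it and supports nothing. Podn and Scp2 overlap on the same strand with 0 shared exon bases.

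Ecm2 encodes a matrix protein with leucine-rich repeats related to those of decorin, and its mean was 0.312 FPKM. It had 41, 22, 24, 41 and 26 reads at 0, -80, -120, -160 and -200 mmHg. It was the member in which the control lay within the range of the pressure libraries. The ratio to the control was 0.593 (0.337 to 1.02) at -80 mmHg and 1.08 (0.684 to 1.71) at -160 mmHg, so no difference was detectable at this depth.

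Counted by side alone, 5 of the 10 members were lower in every pressure library than in the control (Aspn, Omd, Ogn, Dcn and Lum) and 4 were higher in every one (Bgn, Fmod, Prelp and Podn). Over all measured genes these shares were 33.3% and 51.5%. Lum and Ecm2 are not among those genes. Aspn, Omd, Podn and Fmod are, but only through the condition in which they were high, so these counts support nothing. The directions of Bgn and Ogn depend on the scaling, as given above.

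The summed FPKM of the 10 members was 944, 913, 906 and 1015 at -80, -120, -160 and -200 mmHg, against 1199 in the control, which is 0.787, 0.762, 0.756 and 0.847 of the control. Bgn, Dcn and Ogn together made up 97.8% to 98.0% of the sum under pressure and 96.1% in the control. Dcn held 15.3%, 15.0%, 15.2% and 16.3% at the 4 pressures, against 35.2% in the control. Bgn held 61.6%, 61.9%, 60.5% and 60.3%, against 42.5%, and Ogn 20.9% to 22.3%, against 18.5%. Dcn was the member with the largest difference in FPKM from the control, beside nearly level Bgn and Ogn. Under quantile normalization the sum was above the control at all 4 pressures (1.05 to 1.16 times the control).

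**Figure D3:**
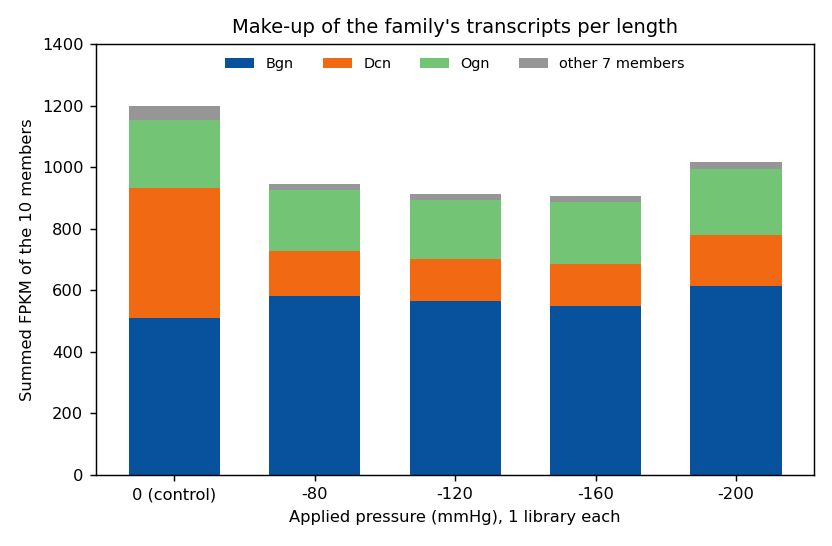
Summed FPKM of the 10 members in each library, with the control at 0 mmHg on the left and the bars stacked by gene. The Dcn segment is 137 to 166 FPKM under pressure against 422 FPKM in the control, and the bars for the 4 pressures reach 906 to 1015 FPKM against 1199 FPKM.

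The next comparison was among the pressures. Of the 8 measured members 0 passed the 2-fold rule from -80 to -120, from -120 to -160 or from -160 to -200 mmHg, where 0.883%, 0.974% and 0.900% of all measured genes did. Between any pair of pressures 2.26% of genes passed. With a pseudocount of 0.1 or a 1.5-fold threshold 1 member, Fmod, passed between -120 and -80 mmHg, against 1.78% and 2.33% of genes. The binomial test on the reads called 4, 3 and 4 members at the 3 steps, against 25.0%, 28.2% and 18.7%. The range over the 4 pressures was 0.15 to 0.27 on the log2 scale for Aspn, Omd, Ogn, Dcn, Bgn, Prelp and Podn and 0.65 for Fmod. The median range was 0.17 over the measured members and 0.22 over all measured genes. Aspn and Omd were under 1 FPKM in all 4 pressure libraries, where log2(FPKM + 1) shrinks any difference. Their ranges, and their part in the count of 0 and in the median, therefore do not show that their levels were alike. Aspn at -160 mmHg was 5.87-fold (0.712 to 269.9) its level at -80 mmHg, from 6 and 1 reads. Fmod at -120 mmHg was 2.36-fold (1.61 to 3.53) its level at -80 mmHg, and at -160 mmHg 0.605-fold (0.427 to 0.850) its level at -120 mmHg, so its levels did not follow the order of pressure. Dcn was 1.21-fold (1.18 to 1.24) higher at -200 than at -160 mmHg, Bgn 1.12-fold (1.10 to 1.13) and Ogn 1.07-fold (1.04 to 1.11). These intervals hold the counting of reads and no variation between cultures, so they compare libraries and not pressures.

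The genome order of the members was set beside these values. Ecm2, Aspn, Omd and Ogn lie in this order, on the same strand, within 119.7 kb of chromosome 13, from 49504810 to 49624501, with gaps of 11.7, 14.9 and 15.2 kb. Their mean log2 differences in that order were -0.11, -5.01, -1.68 and -0.14. Neighbours thus differed by more than 3 log2 units between Aspn and Omd, and Ogn lay near the control. Ecm2, at 0.393 FPKM in the control, had little room to fall on this scale, so its value cannot show that it was level. Aspn over Ogn FPKM was 0.000129 to 0.000743 under pressure and 0.153 in the control, and Omd over Ogn was 0.00341 to 0.00478 under pressure and 0.0224 in the control. The whole cluster lies inside Cenpp, a centromere protein gene on the opposite strand, which shares 7 exon bases with Aspn and 0 with the other 3 members. Cenpp stood at 0.842 to 1.26 FPKM under pressure and 4.03 FPKM in the control, and was lower at all 4 pressures.

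On chromosome 10 Dcn, Lum, Kera and Epyc follow each other over 203 kb, with gaps of 47.0, 34.2 and 30.4 kb. Kera encodes keratocan, a corneal SLRP. It had 0, 1, 0 and 0 reads at the 4 pressures in order, against 109 in the control, so it was at least 32.9-fold lower at -80 mmHg, 33.6-fold at -160 mmHg and 35.7-fold at -200 mmHg against a floor of 3 reads per library. At -120 mmHg its 1 read was 1.02% (0.0255% to 5.79%) of the control level. Epyc had 0 reads in all 5 libraries. The 3 genes with reads in this row were thus all lower under pressure, while Optc, Prelp and Fmod, which lie within 151 kb of each other on chromosome 1, were above the control in every pressure library. Optc, which encodes opticin of the eye, stood at 1.0 to 1.52 FPKM under pressure and 0.760 FPKM in the control (mean log2 difference 0.40).

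**Figure D4:**
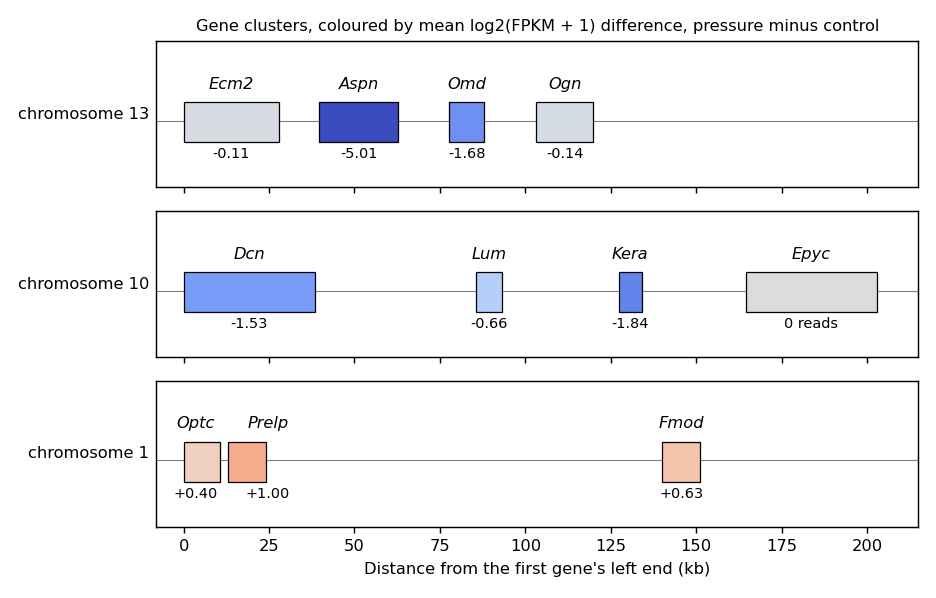
Gene clusters of the family drawn to scale as distance from the first gene's left end (kb), with boxes coloured and numbered by the mean log2(FPKM + 1) difference over the 4 pressures, pressure minus control. Lum, Ecm2 and Kera had a mean under 1 FPKM and Epyc had 0 reads. On chromosome 13 Aspn (-5.01) and Omd (-1.68) lie between Ecm2 (-0.11) and Ogn (-0.14).

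Of 24 measured genes within 250 kb of a member, members left out, 3 were higher and 1 was lower at all 4 pressures, 18 did not pass the rule anywhere, and over all measured genes 6.49% were higher and 4.46% lower at all 4. The higher ones were Btg2, an antiproliferative gene next to Fmod (18.7 to 22.2 FPKM under pressure, 2.54 FPKM in the control), Chil1, a chitinase-like gene (1.43 to 1.90 FPKM, 0.174 FPKM), and Echdc2 near Podn (20.9 to 23.3 FPKM, 7.70 FPKM). The lower one was Cenpp. Next to the chromosome 13 cluster Ippk, Nol8, Iars and Bicd2 had mean log2 differences of 0.01, 0.62, 0.63 and 0.71.

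Other leucine-rich matrix genes were counted from a list of 8. Of these 3 were measured (Tsku, Optc and Podnl1) and 0 passed the rule at any pressure. At single pressures 8.85% to 10.7% of all measured genes were higher and 6.03% to 6.89% lower. Tsku encodes tsukushi, a secreted regulator of BMP and Wnt signalling, and stood at 14.2 to 16.0 FPKM under pressure and 14.1 FPKM in the control. Podnl1, the gene most like Podn, stood at 14.1, 13, 11.1 and 12.1 FPKM at the 4 pressures against 6.55 FPKM in the control. Chad (chondroadherin) had 11 to 13 reads under pressure and 0 in the control. Nyx (nyctalopin) had 22 to 25 reads under pressure and 2 in the control, and Chadl 26 to 31 reads under pressure and 18 in the control.

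The enzymes that build the sugar chains were counted next. Of 22 genes for the linkage region and for chondroitin and dermatan sulfate, 17 were measured, 0 were higher or lower throughout and 15 passed at none. Csgalnact1, which starts chondroitin chains, stood at 18.6 to 21.3 FPKM under pressure and 8.81 FPKM in the control, and Chst11, a chondroitin sulfotransferase gene, at 9.17 to 11.4 FPKM and 4.09 FPKM, and each was higher at -80, -120 and -160 mmHg. That is 2 of 17 genes, near the 10.7%, 8.85% and 9.59% of all measured genes. Neither Csgalnact1 nor Chst11 passed at any pressure with a pseudocount of 5, or at -120 mmHg under trimmed-mean scaling. Nearest to the control were B3gat3, which adds the last linkage sugar (12.1 to 14.5 FPKM, 13.1 FPKM in the control), and Chpf, a chondroitin polymerase partner (35.3 to 45.7 FPKM, 39.2 FPKM). The median log2 difference of this list was 0.11, 0.22, 0.19 and 0.01 in order of pressure, against 0.16, 0.14, 0.15 and 0.14 for all measured genes. Of 9 keratan sulfate genes 5 were measured and 0 passed at any pressure, with medians of 0.65, 0.56, 0.62 and 0.61. In that list the galactosyltransferase gene B4galt4 stood at 1.01 to 1.5 FPKM under pressure and 1.84 FPKM in the control, and the sulfotransferase gene Chst2 at 4.05 to 5.20 FPKM and 3.20 FPKM.

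Of 11 genes that cut or process SLRPs and their collagen partners 8 were measured, of which 2 were lower and 0 higher throughout, where 4.46% and 6.49% of all measured genes were. The 2 were Mmp2, a gelatinase gene (2.43 to 3.33 FPKM under pressure, 398 FPKM in the control), and Mmp13, a collagenase gene that can also cleave fibromodulin (2.14 to 2.92 FPKM, 75.5 FPKM). Mmp14 passed at -160 and -200 mmHg only. Bmp1, whose product removes the propeptides of biglycan and osteoglycin, stood at 47.4 to 53.5 FPKM under pressure and 27.9 FPKM in the control, under the rule. Adamts5 stood at 15.6 to 19.5 FPKM and 13.3 FPKM, and Mmp3 at 172 to 237 FPKM and 330.4 FPKM. The median log2 difference of the list was -0.84, -0.85, -0.84 and -0.78 in order of pressure.

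Of 15 ligands and receptors that SLRPs bind 12 were measured, 4 were higher throughout, 1 was lower throughout (6.49% and 4.46% of all measured genes) and 6 passed at none, with medians of 0.84, 0.70, 0.75 and 0.71. The higher ones were Ccn4, a matricellular protein gene (14.1 to 15.4 FPKM under pressure, 5.02 FPKM in the control), the growth factor gene Bmp4 (21.3 to 24.3 FPKM, 8.44 FPKM), Tlr4 (11.8 to 13.7 FPKM, 5.12 FPKM) and Egfr (20.2 to 23.8 FPKM, 9.50 FPKM). Tlr4 and Tlr2, receptors of innate immunity that soluble biglycan engages, differed in direction, with Tlr2 at 16.5 to 17.5 FPKM under pressure and 48.7 FPKM in the control. Tlr4 no longer passed at all 4 pressures under trimmed-mean scaling or quantile normalization. Egfr no longer did under trimmed-mean scaling, and its call under quantile normalization is not given here. With a pseudocount of 5 Ccn4, Bmp4, Tlr4 and Egfr no longer passed at all 4 pressures. Nearest to the control were Tgfb2 (3.28 to 4.17 FPKM, 3.68 FPKM in the control) and Met (13.1 to 15.9 FPKM, 14.1 FPKM).

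Of 13 fibrillar collagen and partner genes 11 were measured, 3 were lower throughout, 0 were higher throughout (4.46% and 6.49% of all measured genes) and 7 passed at none, with medians of -0.30, -0.48, -0.61 and -0.67. The 3 were the collagen VI genes Col6a3 (3.82 to 4.57 FPKM under pressure, 25.9 FPKM in the control) and Col6a2 (18.9 to 23.7 FPKM, 67.3 FPKM) and the collagen V gene Col5a3 (9.45 to 12.8 FPKM, 34.1 FPKM). Col3a1 (203 to 223 FPKM, 245 FPKM) and Col5a1 (44.8 to 56.7 FPKM, 54.5 FPKM) lay nearest to the control. Of 13 other matrix proteoglycan genes 3 were measured and 0 passed at any pressure, among them Hspg2, which encodes perlecan (29.4 to 42.6 FPKM under pressure, 33.6 FPKM in the control), and the link protein gene Hapln4 (1.54 to 2.59 FPKM, 1.34 FPKM). The medians of that list were 0.33, 0.19, -0.19 and -0.14.

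**Figure D5:**
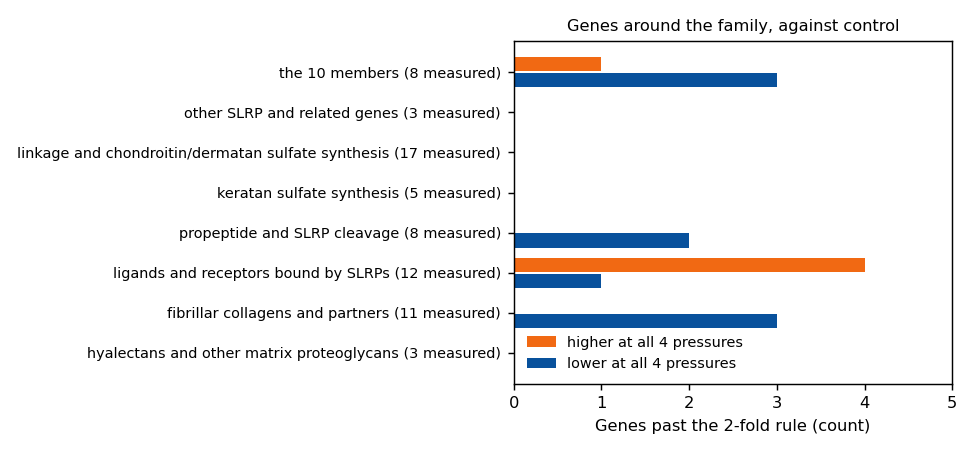
Number of genes in each list that were higher (orange) or lower (blue) than in the control at all 4 pressures by the 2-fold rule, with the number measured beside each list. The 8 measured members show 1 higher and 3 lower, where 6.49% and 4.46% of all measured genes were, the ligand and receptor list 4 higher and 1 lower, and the sugar chain lists 0 on either side.

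Lists of marker genes for bone, cartilage and tendon cells held few measured genes. Of 10 osteoblast markers 4 were measured. Of these, Spp1 alone was lower at all 4 pressures (81.7 to 117 FPKM under pressure, 1749.7 FPKM in the control). Over all measured genes 4.46% were. Alpl (0.894 to 1.28 FPKM, 3.03 FPKM) was below the control and passed the rule at -80 and -160 mmHg only. Col1a1 (435 to 564 FPKM, 929.6 FPKM) was also below it and passed at -160 and -200 mmHg only. Runx2 stood above the control (5.79 to 6.9 FPKM, 3.49 FPKM), under the rule. Of 7 chondrocyte markers 1 was measured, Sox9 (2.10 to 3.02 FPKM, 7.6 FPKM), which was lower, though not at all 4 pressures with a pseudocount of 5 and not measured at a limit of 5 FPKM. Of 7 tendon markers 3 were measured and 1, the early response gene Egr1, was higher at all 4 pressures (109 to 124 FPKM, 31.3 FPKM). This held for 6.49% of all measured genes. The other tendon markers differed in direction. Scx, a tendon transcription factor gene, stood at 19.2 to 20.4 FPKM under pressure and 10.2 FPKM in the control, and Mkx at 10.1 to 11.5 FPKM and 13.2 FPKM, both under the rule. Of those not measured, Comp had 46 to 60 reads under pressure and 18 in the control, and Thbs4 16 to 29 reads and 2. Tnmd, a defining tendon gene, had 0 reads in each pressure library and 14 in the control. Kera, also on this list, had 0, 1, 0 and 0 reads at the 4 pressures in order and 109 in the control.

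The genes with profiles most like those of Aspn and Bgn were found by Euclidean distance over the 5 values of log2(FPKM + 1). Those nearest to Aspn were the noncoding RNA gene H19 (distance 0.284, 0 to 0.0478 FPKM under pressure and 38.6 FPKM in the control), Csf3, a granulocyte growth factor gene (0.458, 0 to 0.170 FPKM and 26.8 FPKM), and Srpx2 (0.580, 0.144 to 0.370 FPKM and 26.5 FPKM). Those nearest to Bgn were Serpinh1, a collagen chaperone gene (0.164), Lamp1, a lysosomal membrane protein gene (0.196), and P4hb, the beta subunit of prolyl hydroxylase (0.365), with 481 to 596 FPKM under pressure and 449.7 to 549.9 FPKM in the control. Aspn, H19, Csf3 and Srpx2 were all under 1 FPKM in every pressure library and passed the 1 FPKM limit only through the control. Their likeness thus holds little beyond a similar control level and low values under pressure. A likeness over 5 libraries describes these libraries only.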

How the data were processed

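RNA-seq of 5 libraries was used, 1 per condition, grouped by the treatment in the labels. The authors deposited 1 table of FPKM values. The submitters' processing notes name the tools featureCounts 1.5.0-p3, HISAT2 and SAMtools and the rat build rn6, although every gene ID is a mouse Ensembl ID. Symbols, positions and exon lengths came from GENCODE M21 (GRCm38), which held 54349 of the 55401 IDs in the same version and 55141 when versions were ignored. FPKM multiplied by exon length gave whole reads (tolerance 0.001) in 100.0% of version-matched genes and 98.1% of all genes, and these recovered reads held 96.9% to 97.3% of each library total. The sources used here do not say if counting used strand. The table had 0 columns of other samples.

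Differences of log2(FPKM + 1) were taken for the 12113 genes averaging 1 FPKM or more, by a size rule without a test. Alternatives were pseudocounts of 0.1 and 5, a 1.5-fold threshold, no filter or a filter at 5 FPKM, scaling to equal upper quartiles, quantile normalization, scaling by the mean log ratio after trimming 30% from either end (trimmed-mean scaling), scaling without the 50 most abundant genes, and a binomial test on the reads (Benjamini-Hochberg adjusted, threshold 0.05), which compares libraries. The functions were tested on simulated data. The members, lists and rules were chosen with earlier results of these data known. The rule for names took the members, the other SLRP genes, up to 4 genes of each list past the size rule at all 4 pressures and the 2 nearest to 0, neighbours within 250 kb, and the 3 profiles nearest to Aspn and to Bgn. Genes named beyond it were chosen after their values were seen. Sequences came from RefSeq. Software was scipy 1.17.1, numpy 2.4.6, matplotlib 3.10.9 and pandas 2.3.3 under Python 3.11.15.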

Additional observations from a re-analysis of the deposited data

How the results depend on the processing

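The number of members lower than in the control was 3. It was 2 with a pseudocount of 5 and among genes averaging 5 FPKM or more, where Omd could not be called. Under quantile normalization it was 2 at -80 and -200 mmHg (without Dcn). In the binomial test it was 4 at -80, -120 and -160 mmHg (with Ogn). Aspn lay at -2.91 or lower on the log2 scale under each scaling and pseudocount. The number of higher members moved as well. Under trimmed-mean scaling and under quantile normalization 1 member (Podn) was higher at -80, -120 and -200 mmHg. With a pseudocount of 5 the number was 0 at all 4 pressures. Among genes averaging 5 FPKM or more, where Podn could not be called, it was 1 (Prelp) at -80, -120 and -200 mmHg and 0 at -160 mmHg. At -160 mmHg it was 2 with a pseudocount of 0.1 (Fmod and Podn) and with a 1.5-fold threshold (Prelp and Podn). The binomial test of the reads called 4 at every pressure (Bgn, Fmod, Prelp and Podn), where it called 46.7% to 47.9% of all genes. Between neighbouring pressures a pseudocount of 0.1 and a 1.5-fold threshold each called 1 member, Fmod, from -80 to -120 mmHg, and the binomial test called 4, 3 and 4 members at the 3 steps, where it called 25.0%, 28.2% and 18.7% of all genes. The summed FPKM over the control at -80, -120, -160 and -200 mmHg was 0.71, 0.691, 0.679 and 0.769 under trimmed-mean scaling and 1.15, 1.05, 1.09 and 1.16 under quantile normalization. With upper quartiles made equal it was 0.795 at -80 mmHg and 0.86 at -200 mmHg. The cause of these shifts was not tested. No paired analysis was possible because each condition has 1 library. Depth limits Lum, Ecm2, Fmod and the Aspn values under pressure.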
